A study of Rattus norvegicus with 138 samples.

Results

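The microRNA miR-126a was followed through both strands of its hairpin, miR-126a-5p and miR-126a-3p, which are 2 of the 471 mature miRNAs counted in rat serum. They were taken by name and not by a rule on their counts, although earlier results of these data were known. The rats, Sprague-Dawley males, received 4 metal pellets in the gastrocnemius muscles at 3 months of age, and small RNA of their serum was sequenced to look for circulating markers of an embedded metal. The pellets were of lead (Pb), depleted uranium (DU), aluminium (Al), copper (Cu), iron (Fe), cobalt (Co), nickel (Ni), tungsten (W) or, as the surgical control, tantalum (Ta), a metal held to be inert in muscle. Blood was drawn 1, 3, 6 and 12 mo after implantation, and the 138 libraries form 35 groups of n = 4, except W and Ta at 6 mo with n = 3, with no Ni group at 12 mo. The labels do not say which of the 8 rats of a group gave a library, so each p measures the spread between libraries.

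In vertebrates miR-126 lies within Egfl7, a gene of the endothelial lining of vessels, and it is among the most abundant miRNAs of endothelial cells; platelets and blood progenitors carry it too. In mouse and zebrafish the 3p strand represses the signalling brakes Spred1 and Pik3r2 and so strengthens the response to VEGF, and in mouse the 5p strand represses Dlk1 and favours endothelial proliferation. Both strands therefore act as guides, although they come from opposite arms of 1 precursor. In serum the miRNA is cell-free, in vesicles or bound to protein, so its cell of origin is not measured here, and a change in the number of releasing cells cannot be told apart from a change in the RNA each releases.

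The mature sequences are shown because the strands differ in their seeds, the bases 2 to 8 that pair with target mRNAs, and because an antisense miRNA covers the 5p strand. They are from RefSeq on GRCr8, 5′ to 3′, with the seed in capitals; RefSeq matched 434 of the 471 miRNAs.
miR-126a-5p: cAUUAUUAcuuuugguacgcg
miR-126a-3p: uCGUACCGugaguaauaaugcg
miR-126b: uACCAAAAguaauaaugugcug
The 5p strand has 21 bases and the 3p strand 22, and no other miRNA in the table with a RefSeq match has either seed. Aligned without gaps, up to 18 positions pair between the strands (G-U pairs included), and 16 bases of the precursor separate them on rat chromosome 3, inside the span of Egfl7. The third sequence, miR-126b, is read from the opposite DNA strand and has a stretch of 17 bases that is complementary to the 5p strand. RefSeq lists the hairpin of both miR-126a strands as Mir126b and the antisense entry as Mir126a. The table has no separate entry for miR-126b, and the sources used here do not say whether strand was kept in counting.

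Both strands were regular but modest components of serum. Across all libraries miR-126a-3p had 172013 counts, 0.118% of the total, and ranked 59 of 471 by mean share of the library total, without TMM factors. The 5p strand had 40912 counts, 0.0281% of the total, and ranked 89. A count was present in 124 of 138 libraries for the 3p strand and in 115 for the 5p strand. CPM are counts scaled to library size with TMM factors over all libraries. The 3p strand averaged 1295 ± 1290 CPM and the 5p strand 279 ± 270 CPM (SD, n = 138), so the spread over libraries was as wide as the mean. Library totals ran from 518 to 6406599 counts, with a median of 685384.5, and 6 libraries held fewer than 20000. There were 10 libraries without a count of either strand, and all 6 shallow ones were among them.

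By month, detection of both strands was poorest at 3 mo. The 5p strand had a count in 34 of 36 libraries at 1 mo, but in only 22 of 36 at 3 mo, then in 29 of 34 (6 mo) and 30 of 32 (12 mo). The 3p strand had a count in 35, 26, 32 and 31 of the same libraries. At 3 mo the libraries that lacked the 5p strand detected a median of 78.5 miRNAs, against 124.5 in those that had it, so the losses went with a general loss of kinds of miRNA. The part of depth in these losses was not tested.

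**Figure D1:**
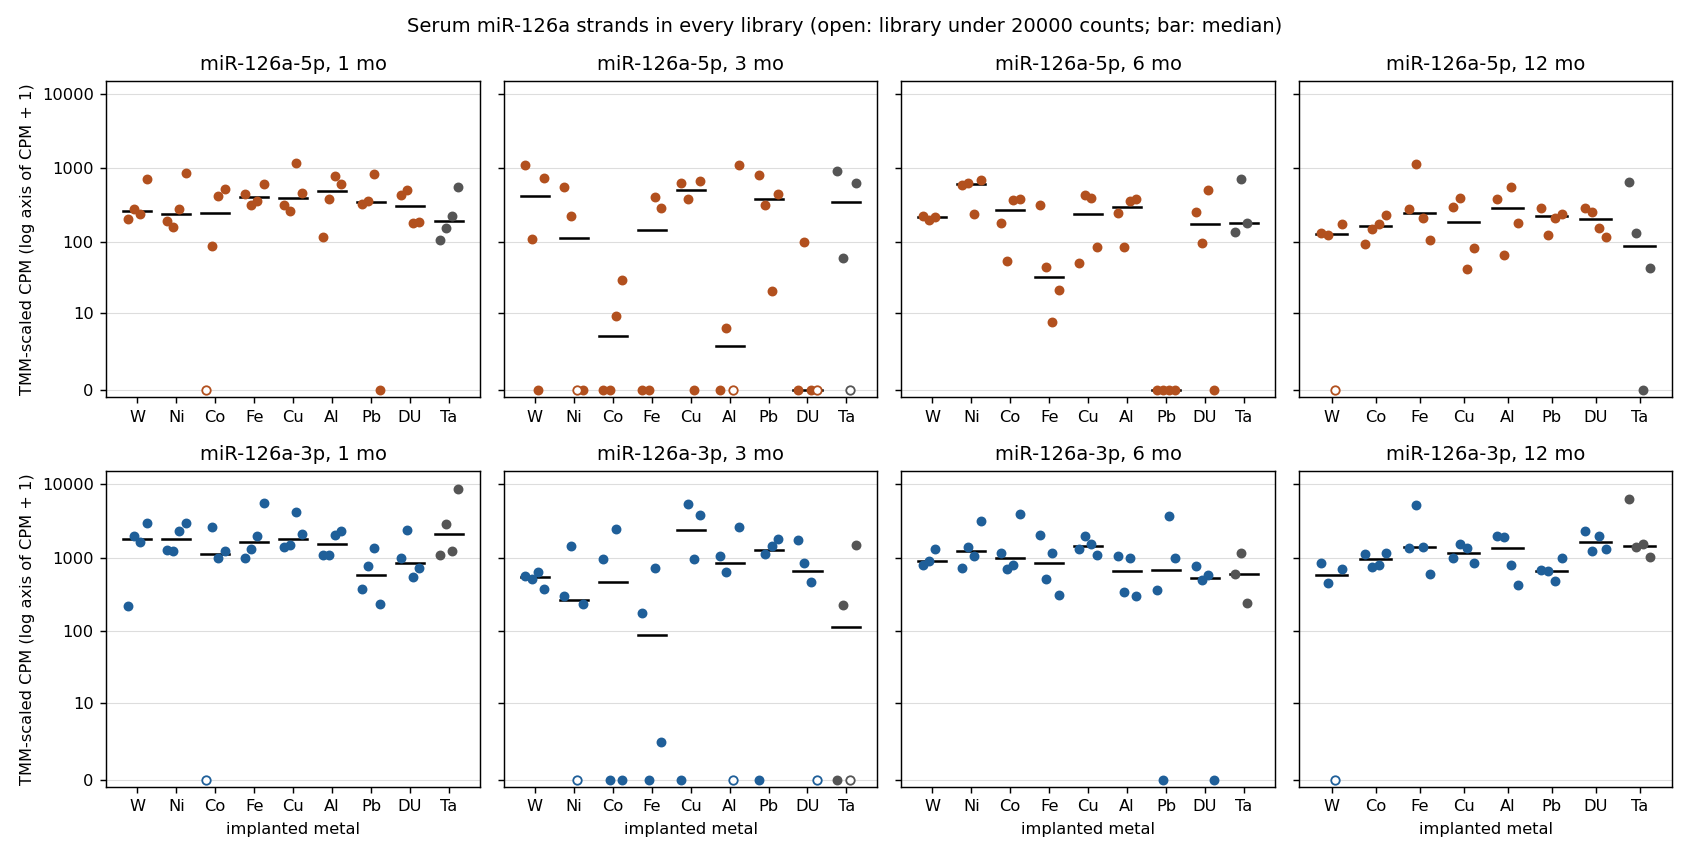
CPM of miR-126a-5p (upper panels) and miR-126a-3p (lower panels) in each library, by metal and by months after implantation, on a log axis of CPM + 1. Points are libraries, open where the total was under 20000 counts, and bars are group medians; zeros are most frequent at 3 mo, and at 6 mo all 4 Pb libraries lie at 0 for the 5p strand.

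At 1 mo the 5p strand averaged 551 ± 418 CPM in Cu sera, 469 ± 286 in Al, 432 ± 126 in Fe, 380 ± 343 in Pb, 373 ± 329 in Ni, 355 ± 232 in W, 327 ± 169 in DU and 254 ± 249 in Co, against 262 ± 204 in Ta (SD, n = 4 each). The 3p strand averaged 2425 ± 2046 CPM in Fe, 2271 ± 1287 in Cu, 1939 ± 843 in Ni, 1698 ± 1134 in W, 1617 ± 632 in Al, 1203 ± 1071 in Co, 1154 ± 816 in DU and 691 ± 505 in Pb, against 3408 ± 3445 in Ta. Ta thus stood highest of the 9 groups for the 3p strand and in place 8 for the 5p strand. For each strand the ranges of all 8 pairs of neighbouring groups in this order overlapped.

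At 3 mo the 5p means spread far more widely. They were 481 ± 518 CPM in W, 419 ± 307 in Cu, 392 ± 321 in Pb, 274 ± 544 in Al, 196 ± 264 in Ni, 176 ± 208 in Fe, 24.6 ± 49.3 in DU and 9.55 ± 13.8 in Co, against 404 ± 449 in Ta (SD, n = 4 each). The 3p strand averaged 2495 ± 2433 CPM in Cu, 1085 ± 771 in Pb, 1076 ± 1123 in Al, 844 ± 1146 in Co, 758 ± 724 in DU, 522 ± 110 in W, 495 ± 649 in Ni and 227 ± 344 in Fe, against 429 ± 713 in Ta. In most of these groups the SD was near or above the mean, because libraries with no count stood beside libraries with high ones, and all neighbouring ranges overlapped.

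At 6 mo the 5p strand averaged 536 ± 204 CPM in Ni, 265 ± 134 in Al, 244 ± 156 in Co, 241 ± 201 in Cu, 215 ± 223 in DU, 211 ± 15.2 in W, 96.6 ± 145 in Fe and 0 in Pb, against 342 ± 320 in Ta (SD, n = 4, or 3 in W and Ta). Fe and Pb, the lowest groups, were the 1 pair of neighbours whose ranges did not overlap. The 3p strand averaged 1632 ± 1492 CPM in Co, 1588 ± 1083 in Ni, 1474 ± 382 in Cu, 1248 ± 1650 in Pb, 1009 ± 271 in W, 996 ± 760 in Fe, 676 ± 409 in Al and 462 ± 329 in DU, against 666 ± 467 in Ta. Pb was therefore lowest of the 9 groups for the 5p strand and in place 4 for the 3p strand. That place rests on replicate 3, with 3646 CPM, and without it Pb averaged 449 ± 500 CPM (SD, n = 3), the lowest of the 9 groups.

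At 12 mo the 5p strand averaged 428 ± 470 CPM in Fe, 295 ± 215 in Al, 213 ± 68.4 in Pb, 204 ± 80.9 in DU, 204 ± 170 in Cu, 162 ± 58.2 in Co and 107 ± 74.8 in W, against 205 ± 299 in Ta (SD, n = 4 each). The 3p strand averaged 2151 ± 2083 CPM in Fe, 1705 ± 510 in DU, 1261 ± 767 in Al, 1182 ± 319 in Cu, 961 ± 212 in Co, 705 ± 217 in Pb and 499 ± 368 in W, against 2535 ± 2458 in Ta. As at 1 mo, Ta was the highest group for the 3p strand. All neighbouring ranges overlapped for both strands.

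Each metal was compared with Ta at each time by edgeR's quasi-likelihood test on counts, fitted across all miRNAs that passed the count filter in the libraries of that time, with Benjamini-Hochberg adjustment over all miRNAs of a comparison. In 31 comparisons miR-126a-5p was called at an adjusted p under 0.05 in 1, Pb at 6 mo, and miR-126a-3p in 0. Across all miRNAs and these comparisons, 0.193% of the tests were called, and 0.138% with a fall. At an unadjusted p under 0.05 there was 1 comparison for the 5p strand and 3 for the 3p strand, where 10.5% of all tests passed, so 3 of 31 is near that background. By DESeq2 the 3p strand was called in 2 comparisons, Pb at 1 mo and W at 12 mo, where it called 4.07% and 1.79% of all miRNAs. DESeq2 called 3.99% of all tests over the 31 comparisons, so 2 of 31 is near that background.

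**Figure D2:**
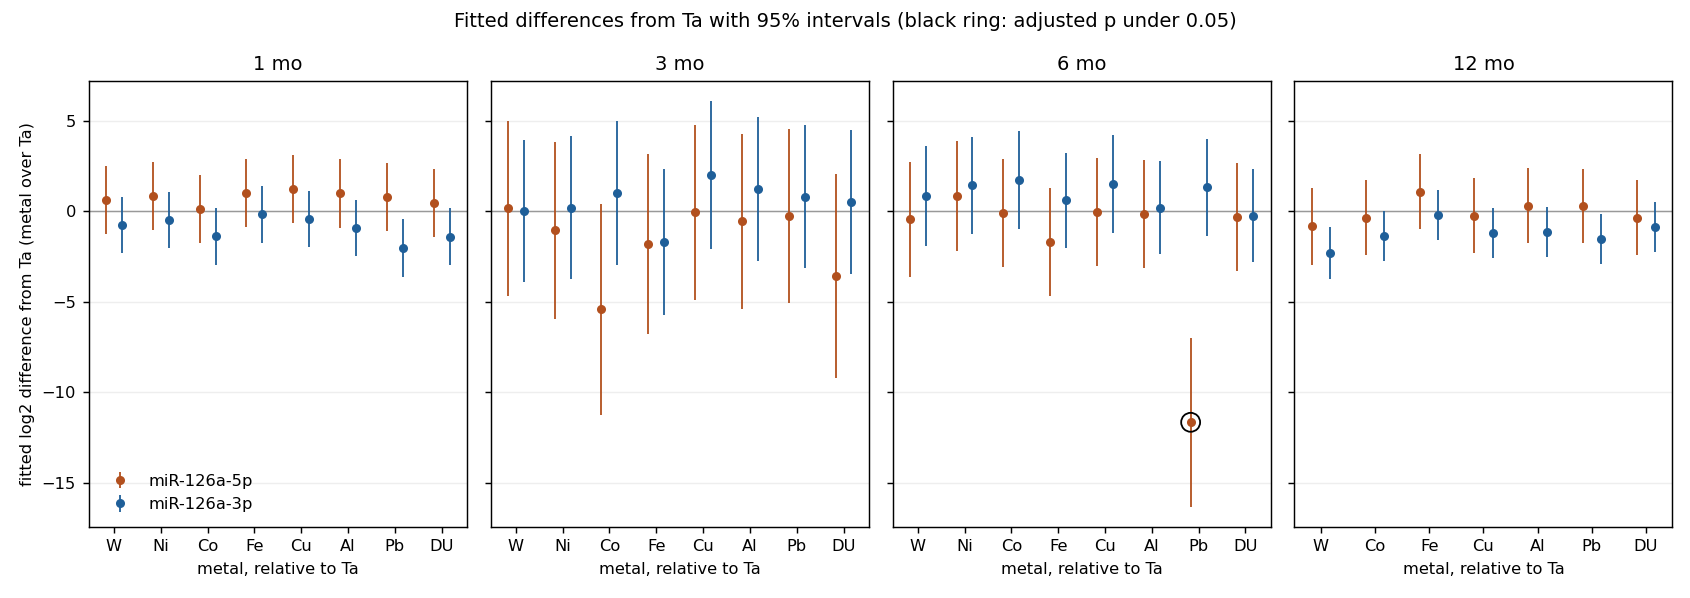
Fitted log2 difference of each metal from Ta (metal over Ta), with 95% intervals, for the 5p strand (orange) and the 3p strand (blue), in a panel per time. The ringed point, miR-126a-5p in Pb at 6 mo, is the only one with an adjusted p under 0.05; its size depends on the prior because all Pb libraries are at 0. At 1 mo the 5p points lie above 0 (7 of 8 with RLE factors or by DESeq2) and the 3p points below it, all against the same 4 Ta libraries.

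In Pb rats at 6 mo the 5p strand was missing while the 3p strand was counted in 3 of 4 libraries. The 5p strand had no count in any of the 4 Pb libraries, against 147, 630 and 174 counts in the 3 Ta libraries. In CPM the Ta libraries stood at 137, 711 and 177, and the per-library floor of 3 counts in Pb lay between 3.21 and 9.68 CPM. The 3p strand in the same Pb libraries had 336, 0, 2177 and 495 counts, against 636, 1033 and 236 in Ta. Every Pb library was thus below every Ta library for the 5p strand, and the groups overlapped for the 3p strand.

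The 5p difference at 6 mo was called lower in Pb (edgeR adjusted p = 0.00217, a test of a difference and not of its size). Taken over the group, 3 counts correspond to 1.28 CPM. For counting error only, this puts the 5p strand at least 267-fold lower in Pb than the mean of Ta. This bound does not cover the loss of a whole strand from a library. Such loss was seen elsewhere, as in DU at 3 mo replicate 1, with 0 counts of the 5p strand beside 1432 of the 3p strand. The bound falls to 123-fold without the highest Ta library, replicate 2. The 3p difference at 6 mo was 1.31 on the log2 scale, higher in Pb, and was not called (edgeR adjusted p = 0.62). Its sign rests on 1 library, since without Pb replicate 3, at 3646 CPM, the difference was -0.24 (adjusted p = 1). The call of the 5p strand ended when only the Pb and Ta libraries were fitted (edgeR adjusted p = 0.0809) and when all libraries numbered replicate 2 were left out (adjusted p = 0.0872). It kept its side when any 1 of the 7 libraries was left out.

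The same Pb libraries were poor in kinds of miRNA. They held 156881 to 812550 counts and detected 70 to 96 miRNAs, against 720097 to 1354321 counts and 168 to 223 miRNAs in Ta. In this comparison 2.94% of 272 miRNAs were called, all of them lower in Pb. Of the 272, 23 (8.46%) had no count in any Pb library and a count in every Ta library, as the 5p strand did. For 35 of 271 (12.9%) every Pb library lay below every Ta library. The median log2 difference of all tested miRNAs was -0.86. How much of the 5p difference goes with this general loss was not tested.

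Summed over the group, Pb at 6 mo gave 0 counts of the 5p strand beside 3008 of the 3p strand, which allows a 5p share of up to 0.0997% (counting error only). Replicate 3 gave 2177 of the 3008, and without it the limit over 831 counts is 0.361%. In Ta at 6 mo the 5p strand had 951 counts beside 1905 of the 3p strand, a share of 33.3%.

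**Figure D3:**
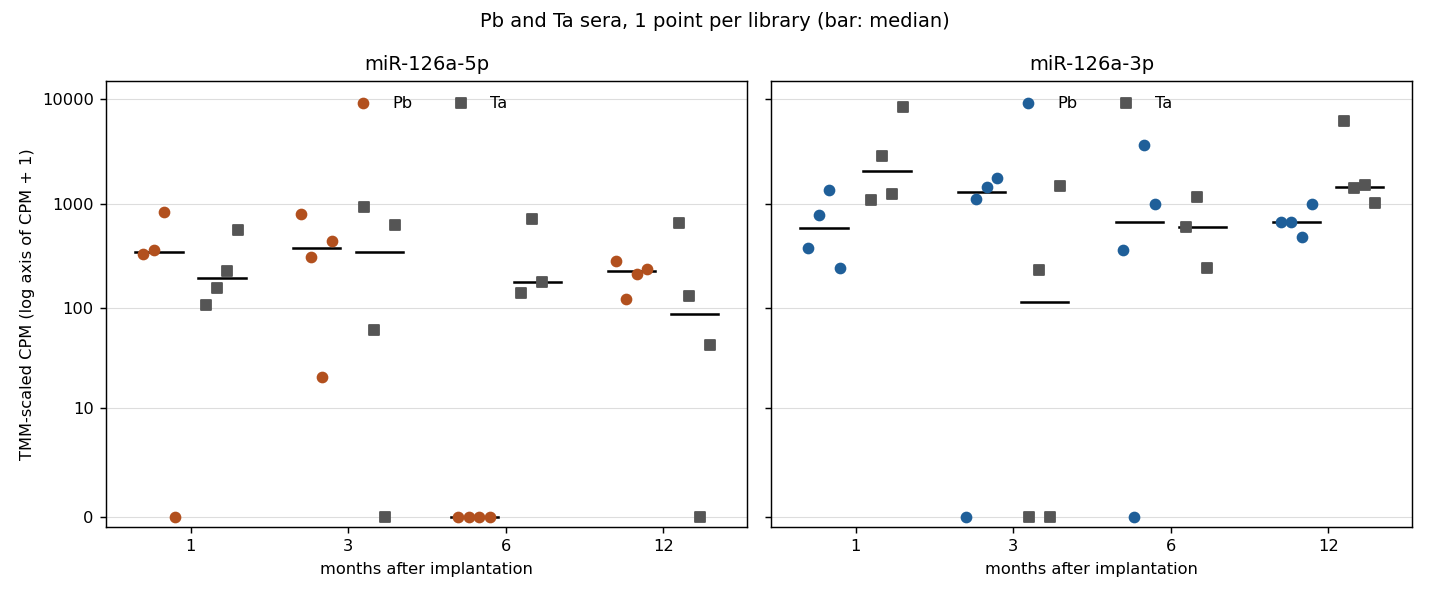
CPM of the 5p strand (left) and the 3p strand (right) in Pb libraries (circles) and Ta libraries (squares) by months after implantation, on a log axis of CPM + 1, with group medians as bars. For the 5p strand the groups overlap at 1, 3 and 12 mo, and at 6 mo all Pb libraries are at 0 while Ta lies between 137 and 711 CPM.

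At the other times the 5p strand was measured in most Pb sera. At 1 mo it stood at 327, 359, 833 and 0 CPM in Pb, against 106, 155, 227 and 559 CPM in Ta. At 3 mo it stood at 794, 311, 20.6 and 441 CPM in Pb, against 925, 60.3, 0 and 629 CPM in Ta. At 12 mo it stood at 284, 122, 210 and 238 CPM in Pb, against 647, 131, 0 and 43.6 CPM in Ta. The groups overlapped at each of these times, and none was called.

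A test of whether the Pb difference at 6 mo departs from the mean of the other 3 times, chosen after the values were seen, gave an edgeR adjusted p of 0.00268 for the 5p strand and 0.829 for the 3p strand. In that test 4.69% of 320 miRNAs were called, each lower at 6 mo. Averaged over the 4 times the 5p strand was also called lower in Pb than in Ta, by a fitted log2 difference of -2.76 ± 0.84 (SE, edgeR adjusted p = 0.0456), where 4.38% of the miRNAs were called. Without the 6 mo libraries the difference was 0.27 (adjusted p = 1), so the averaged call rests on the 6 mo zeros. It was lost in 32 of 35 fits that left libraries out, with an adjusted p of up to 0.449. No other metal had a call in its average over time, where 1.09% of all tests passed; Co had an unadjusted p of 0.0426 for the 5p strand, at -1.60 ± 0.78 (SE, edgeR adjusted p = 0.31).

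The comparisons with the smallest unadjusted p of the 3p strand at each time did not pass the adjustment. At 1 mo this was Pb, with 379, 778, 1366 and 239 CPM, against 1078, 2875, 1247 and 8431 CPM in Ta. The ranges overlapped through 1 Pb library, and the log2 difference was -2.04 ± 0.82 (SE, edgeR adjusted p = 0.315). At 12 mo it was W, with 839, 460, 0 and 699 CPM, against 6209, 1406, 1511 and 1015 CPM in Ta. All 4 W libraries lay below all 4 Ta libraries, as held for 2.68% of 224 miRNAs, and the difference was -2.32 ± 0.73 (SE, edgeR adjusted p = 0.136). The W library at 0 held only 3789 counts in all, and without libraries under 20000 counts the difference was -1.70 (adjusted p = 0.333).

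Pb at 12 mo was the third comparison with an unadjusted p under 0.05. Its libraries had 671, 667, 481 and 1002 CPM of the 3p strand, against the same Ta values, again with no overlap, as for 5.36% of 224 miRNAs, and the log2 difference was -1.54 ± 0.71 (SE, edgeR adjusted p = 0.237). At 3 mo the smallest p was that of Cu, with 0, 5243, 965 and 3774 CPM, against 0, 229, 0 and 1486 CPM in Ta. This log2 difference of 1.99 ± 2.08 was smaller than its own error (edgeR adjusted p = 0.994). At 6 mo it was that of Co, with 1174, 712, 794 and 3849 CPM, against 593, 1165 and 240 CPM in Ta (log2 difference 1.70 ± 1.39, SE, adjusted p = 1).

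Outside Pb at 6 mo, the smallest p of the 5p strand came from Cu at 1 mo, Co at 3 mo and Fe at 12 mo. Cu at 1 mo had 320, 258, 1164 and 460 CPM, against the Ta values of 106 to 559 CPM, with a log2 difference of 1.22 ± 0.97 (SE, edgeR adjusted p = 0.81). Co at 3 mo had 0, 0, 8.89 and 29.3 CPM, against 925, 60.3, 0 and 629 CPM in Ta. The nonzero Co values rest on 2 and 9 reads in libraries of 115671 and 214004 counts, and the fitted difference was not called (edgeR adjusted p = 0.226). Fe at 12 mo had 277, 1125, 207 and 104 CPM, against 647, 131, 0 and 43.6 CPM in Ta, with a log2 difference of 1.07 ± 1.06 (SE, edgeR adjusted p = 0.931); it ranged from -0.35 to 3.21 when libraries of 1 replicate number were left out.

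At 1 mo the fitted differences of the strands from Ta had opposite signs by edgeR with TMM factors. All 8 metals had a positive fitted difference for the 5p strand (0.09 to 1.22 on the log2 scale) and a negative one for the 3p strand (-2.04 to -0.19). At 12 mo the 3p strand was below Ta in 7 of 7 metals (-2.32 to -0.21), while the 5p strand was above it in 3 of 7. At 6 mo the 3p strand was above Ta in 7 of 8. With RLE factors and by DESeq2 the 5p strand was above Ta at 1 mo in 7 of 8 metals, and the 3p strand at 6 mo in 8 of 8, while the 3p signs at 1 and 12 mo held in every metal. These comparisons share the 3 or 4 Ta libraries of their time, so they are not independent, and edgeR called none of the differences named here.

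The ratio of the strands within a library does not depend on the scaling of libraries. It was computed as log2 of (5p count + 0.5) over (3p count + 0.5) in the 127 libraries with at least 20 counts of both strands together. The 3p strand was the higher in 119 of them, and the median 5p share of the counts was 16.9%. Of the 8 libraries with more 5p than 3p, 7 were at 3 mo. The SD of the ratio was 1.61 at 1 mo and 5.86 at 3 mo, then 2.85 and 1.84 at the later times, so its spread was widest at 3 mo. There 11 of 29 libraries had 1 strand without a count, against 5 of 98 at the other months. The ratios of such libraries depend on the added 0.5, so the SD includes the loss of a strand.

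**Figure D4:**
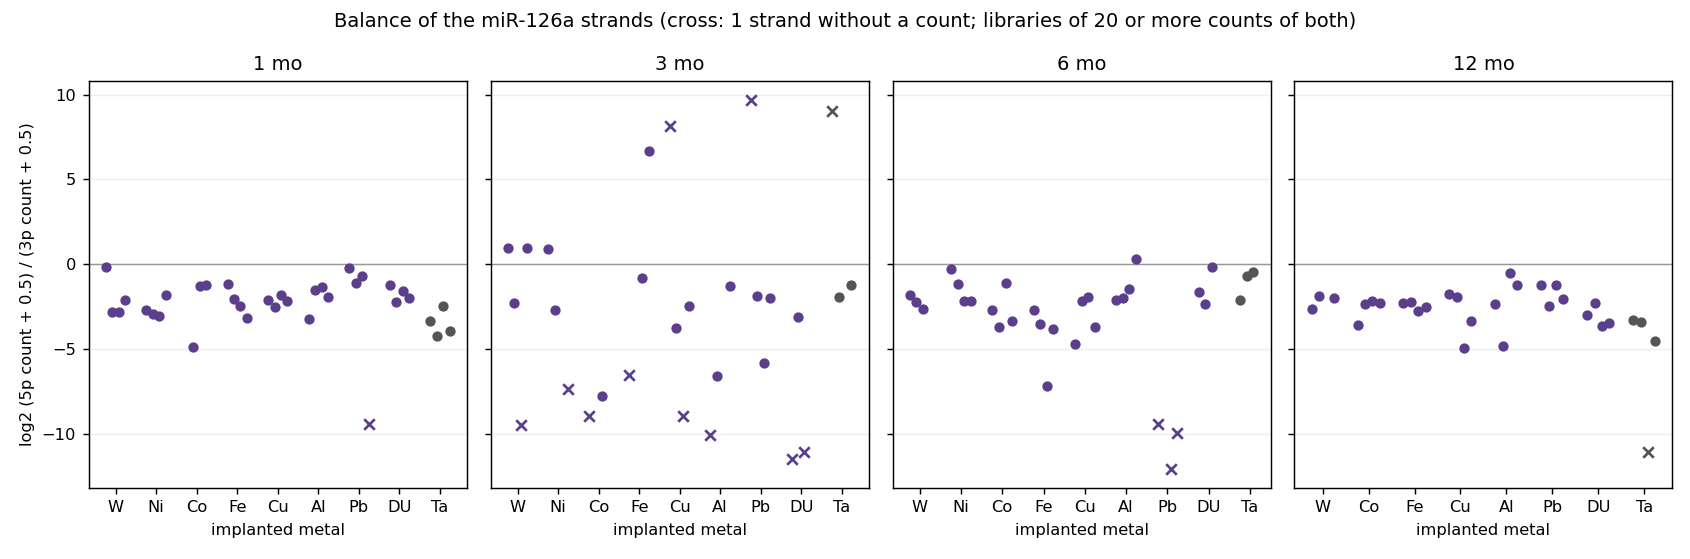
Log2 ratio of 5p to 3p counts (each + 0.5) per library by metal, in panels for 1, 3, 6 and 12 mo; crosses are libraries in which 1 strand has no count. Most libraries lie below 0, with crosses at both extremes at 3 mo, and the 3 measurable Pb libraries at 6 mo, averaging -10.48, are all crosses.

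No metal was called for its mean balance against Ta. With labels permuted within time points (100000 draws, two-sided permutation test), the smallest adjusted p over the 8 metals was 0.888. No comparison of months was called either, with a smallest adjusted p of 0.644 over 4 comparisons. At 6 mo the ratio averaged -10.48 in the 3 Pb libraries with enough counts, against -1.09 in the 3 Ta libraries, with no overlap. The exact permutation p of 0.1 is the smallest that 3 against 3 can give.

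Single-time comparisons of the balance, added after the values were seen, followed the Ta libraries. The metal mean was above that of Ta in 8 of 8 metals at 1 mo and in 7 of 7 at 12 mo, and below it in 8 of 8 at 3 mo and in 8 of 8 at 6 mo. The Ta mean itself was -3.47 at 1 mo and 1.97 at 3 mo, then -1.09 and -5.57. At 12 mo the Ta mean includes 1 library with 1078 counts of the 3p strand and none of the 5p strand, replicate 3, and without it the mean was -3.74, still below all 7 metals. At 3 mo it includes replicate 1, with 262 counts of the 5p strand and none of the 3p strand. Without that library the Ta mean was -1.57, and 6 of 8 metals were below it, with Fe and Pb above. At 6 mo 6 of 8 metals were below the Ta mean without Ta replicate 3, with Al and DU above. The smallest adjusted p over the 31 exact permutation tests was 0.221. The smallest p such a test can give is 0.0286 with 4 against 4 libraries and 0.1 with 3 against 3. No comparison could therefore pass the adjustment over 31 tests on its own, and the lack of calls is not read as a result.

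In 16 of the 127 libraries 1 strand was counted and the other was not. The 5p strand was the missing one in 13 and the 3p strand in 3, while the strand that was present had 46 to 2177 counts. At 3 mo this held for 11 of 29 libraries (37.9%, exact binomial 95% interval 20.7 to 57.7%), against 5 of 98 (5.10%, 1.68 to 11.5%) at the other months. The difference, examined after the values were seen, gave p = 3.12e-05 by Fisher's exact test. By replicate number the 3 mo cases were 7 of 9 libraries numbered 1, 0 of 7 numbered 2, 3 of 6 numbered 3 and 1 of 7 numbered 4. Without the libraries numbered 1 the shares were 4 of 20 and 4 of 73 (exact p = 0.0623).

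The 5 cases at other months were Pb at 1 mo replicate 4, Pb at 6 mo replicates 1, 3 and 4, and Ta at 12 mo replicate 3. All 16 libraries held at least 138922 counts, but they detected a median of 88.5 miRNAs, against 192 in the 111 libraries with both strands. The loss of a strand was not particular to miR-126a. Of 21 other hairpins with both strands found in at least 69 libraries, 20 also had a higher share of 1-strand libraries at 3 mo. Their median share was 53.3% at 3 mo and 14.3% at the other months, and 14 of the 21 exceeded miR-126a at 3 mo.

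Across libraries of at least 20000 counts the log2 CPM of the strands were weakly related. Spearman's rho was 0.363 (permutation adjusted p = 0.0003) and Pearson's r 0.302 (permutation adjusted p = 0.0022) over 132 libraries, adjusted over 5 relations. Without the 2 libraries farthest from the median of the x axis, r was 0.316. Within months rho was 0.475 at 1 mo (n = 35, adjusted p = 0.0109), 0.0783 at 3 mo (n = 32, adjusted p = 0.669), 0.416 at 6 mo (n = 34, adjusted p = 0.0249) and 0.222 at 12 mo (n = 31, adjusted p = 0.285), each by permutation. At 3 and 12 mo the relation did not pass the threshold, and a difference between months was not tested. Pearson's r within months was 0.544, -0.0035, 0.515 and 0.221 in the same order. With the 1 shallow library of 12 mo included, r at that time was 0.602 (n = 32, permutation adjusted p = 0.0082) and rho 0.293 (adjusted p = 0.106).

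**Figure D5:**
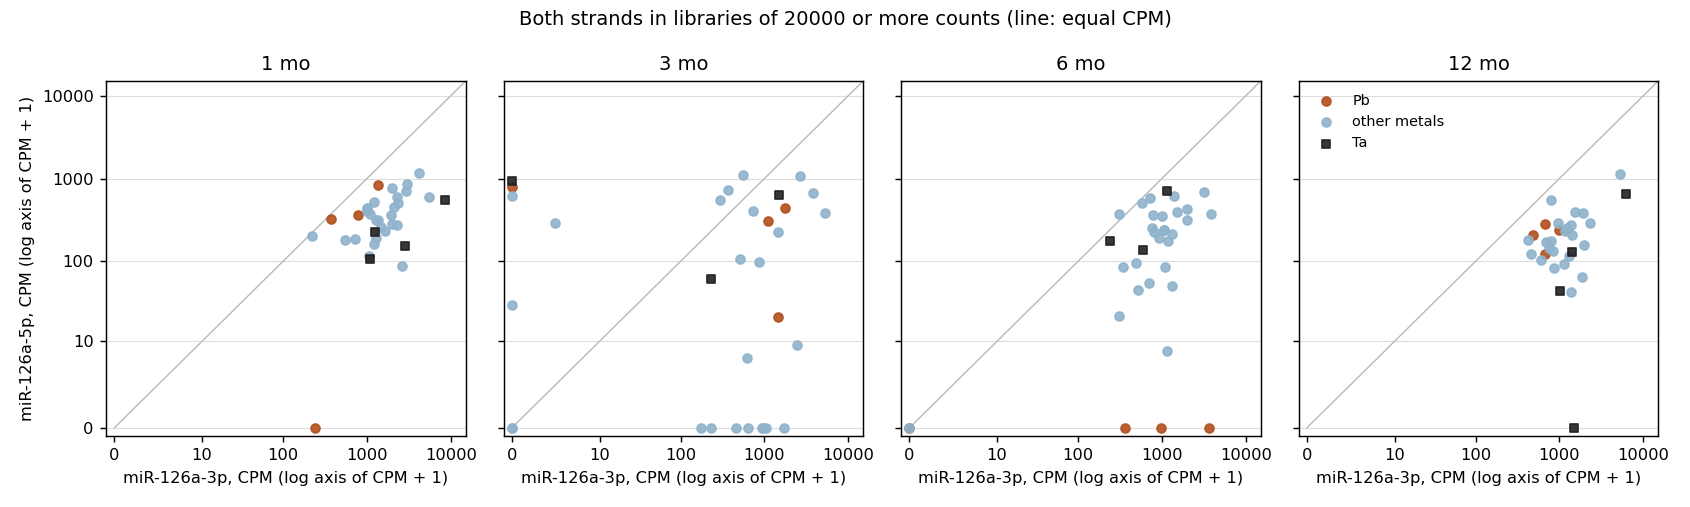
CPM of the 5p strand (vertical) against the 3p strand (horizontal) in libraries of at least 20000 counts, on log axes of CPM + 1, by month, with the line of equal CPM. Pb libraries are orange, other metals light blue and Ta black squares; most points lie below the line, and points on an axis have 1 strand at 0.

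The partner strand was not the miRNA most like either strand. Candidates were 159 miRNAs found in at least 66 of the 132 libraries. Among them the highest rho with the 5p strand was that of miR-221-5p (0.43). It was followed by miR-374-5p (0.43), miR-204-5p (0.42), the inflammation-induced miR-146a-5p (0.42) and miR-99b-5p (0.41). The 3p strand ranked 13. For the 3p strand the highest were miR-146a-5p (0.54), miR-100-5p (0.54), miR-450b-5p (0.53), miR-361-5p (0.52) and miR-99a-5p (0.51), and the 5p strand ranked 28. Of these, miR-221-5p, miR-374-5p, miR-204-5p and miR-450b-5p had a count in only 68, 71, 71 and 68 of all 138 libraries. Their rho therefore reflects in part which libraries had a count. All these values are descriptions, and all pairs share the library, its depth and its scaling.

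Over time, both strands had a negative difference of similar size at 3 mo against 1 mo, and the one of the 3p strand was called. With equal weight on the 8 metals sampled at every time (Ta included, Ni left out), the 3p strand averaged 930 ± 1199 CPM at 3 mo against 1808 ± 1660 CPM at 1 mo (SD, n = 32 each). The fitted log2 difference was -1.07 ± 0.46 (SE, edgeR adjusted p = 0.0481), in a comparison where 43.8% of 320 miRNAs were called and 35.6% fell, with a median of -1.62 over all of them. The 3p fall is thus smaller than that median. It lost its call with other size factors (-0.69 with RLE factors, adjusted p up to 0.253 over all alternatives) and in 30 of 68 fits that left libraries out.

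The 5p strand averaged 272 ± 358 CPM at 3 mo against 379 ± 255 CPM at 1 mo (SD, n = 32 each), with a log2 difference of -1.13 ± 0.54 (SE, edgeR adjusted p = 0.0844). It was called in 5 of 64 fits that left out 1 library. Without Al at 3 mo replicate 4 the difference was -2.05 (adjusted p = 0.00122), and without DU at 3 mo replicate 2 it was -2.13 (adjusted p = 0.000928). The other 3 such libraries were Co and Fe at 3 mo replicate 4 and Pb at 1 mo replicate 4, with adjusted p from 0.0406 to 0.0422. It was also called without all Pb libraries (-1.39) and with a replicate block (-1.76). A difference between the strands was not tested. In the Ta libraries alone, 4 at 1 mo and 4 at 3 mo, the 5p difference was 0.86, of opposite sign. Of these, Ta at 3 mo replicate 3 held only 1645 counts and none of either strand. Over the metals together, the next 5p differences were -0.96 at 6 mo against 3 mo (edgeR adjusted p = 0.248) and 1.32 at 12 mo against 6 mo (adjusted p = 0.139). Both rest on the Pb zeros, since without Pb they were 0.55 and -0.08. For the 3p strand these differences were 0.29 and 0.37, and at 12 mo against 1 mo the strands differed by -0.77 (5p, adjusted p = 0.441) and -0.41 (3p, adjusted p = 0.805), none of them called.

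Other miRNAs of endothelium and angiogenesis, a list of 19 in the table of which 17 were tested, had no edgeR call in Pb at 6 mo. Of the 17, 0 rose and 0 fell by edgeR, which called 2.94% of all 272 miRNAs, so 0 of 17 is near that background. Their median log2 difference was -0.03, against -0.86 for all 272. At an unadjusted edgeR p under 0.05 there were 2. The share of all miRNAs at that threshold is not given here, so this count is not read as a result. By DESeq2, 1 rose and 2 fell, where it called 15.1% of all 272 miRNAs, so 3 of 17 is near that background. The list includes miR-221 and miR-222, the miR-23, miR-27 and miR-24 clusters, miR-92a-3p, and from the HOX clusters miR-10b-5p and miR-10a-5p. Its summed level was 11.4 to 34.8% of the counts in Pb libraries and 23.5 to 29.8% in Ta. Of the 19, 6 had no count in any Pb library and 4 none in any Ta library. The shares over all miRNAs are not given here, so these counts are not read as a result either. At 3 mo against 1 mo 10 of the 17 fell and 0 rose, where 35.6% of all miRNAs fell. Their median of -1.38 was a smaller fall than the -1.62 of all 320. In the same comparison 3 of 4 smooth muscle markers fell and 0 rose, and 5 of 10 platelet markers fell and 3 rose. Leukocyte markers had 2 falls and 0 rises, erythrocyte markers 1 of each, liver markers 1 fall and 2 rises, and skeletal muscle markers 0 falls and 2 rises. Falls were thus not particular to the endothelial list. At 6 mo against 3 mo 6 of the 17 rose and 0 fell, where 12.8% of all miRNAs rose.

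In Pb at 6 mo edgeR called the markers of other sources about as often as all 272 miRNAs (2.94%). Among those tested, 1 of 7 for erythrocytes fell (miR-15b-5p), and 0 of 10 for platelets, 0 of 6 for leukocytes, 0 of 4 for smooth muscle, 0 of 4 for liver and 0 of 5 for skeletal muscle were called by edgeR. DESeq2 called 2 platelet markers, 1 each for erythrocytes, smooth muscle, liver and skeletal muscle, and 0 for leukocytes, in a comparison where DESeq2 called 15.1% of all miRNAs. The summed platelet markers made 18.1 to 35.6% of the counts in Pb and 26.9 to 46.4% in Ta, and the erythrocyte markers 0.826 to 2.60% in Pb and 1.49 to 3.02% in Ta. At an unadjusted edgeR p under 0.05 there were 2 platelet markers, 2 for erythrocytes, 1 for liver and 0 for the other sources. The share of all miRNAs at that threshold is not given here, so these counts are not read as a result about the sources. The platelet list shares miR-24-3p, and the erythrocyte list miR-92a-3p, with the endothelial list. Their part in the 5p difference was not tested.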

How the data were processed

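Serum RNA was made into libraries with a Norgen small RNA kit and sequenced on a NextSeq instrument, per the labels' protocols. The authors deposited 1 table of raw counts of mature miRNAs; per the submitters' processing notes the assembly was Rnor_6.0, and neither aligner nor counter is named in those notes or the labels. Columns were matched to samples by title.

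Counts were tested in R 4.3.3 with edgeR 4.0.16: filterByExpr (minimum count 10, minimum total 15), TMM factors, and quasi-likelihood tests with 1 mean per metal and time, adjusted by Benjamini-Hochberg within a comparison and called at 0.05. Comparisons at 1 time point used that time point's libraries; averages over time and month comparisons used all 138. CPM values use 1 scale over all libraries. Fitted log2 differences against a group of zeros depend on the prior, so a bound from 3 counts over the group is given. Floors and bounds from 3 counts cover counting error only. Intervals of fitted differences come from the edgeR fit and include the spread between libraries. Exact binomial intervals are for shares of libraries. Strand ratios used a pseudocount of 0.5, and correlations log2 CPM with a prior count of 2. Permutation, Fisher and binomial tests used Python 3.11.15 with scipy 1.17.1. The edgeR test and the permutation test of the mean strand balance were checked on simulated data, which did not include the loss of a whole strand.

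The members, lists and tests were chosen with earlier results of these data known. Described are each comparison that calls a strand, the smallest p per strand and time, and the 5 miRNAs closest to each strand. Pb at 12 mo, the test of 6 mo against the other times, the 1-strand libraries and the other hairpins were added after the values were seen. Alternatives were DESeq2 1.42.0, RLE factors, no filter, a replicate block, fits of 2 groups, Ta alone, leaving libraries out, and other minimums, pseudocounts and prior counts. The labels do not tie replicate numbers to rats, and libraries were treated as independent. Deviations of same-numbered libraries had a correlation over 0.1 in 13 of 132 pairs within a metal across times (highest 0.37). Between a metal and Ta this held in 27 of 116 pairs (highest 0.55). Differently numbered pairs were not examined, so this check cannot exclude that the numbers pair libraries.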

Additional observations from a re-analysis of the deposited data

Results flagged for a closer look

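Samples far from the rest of their group were looked for in 88 sets of 4 libraries with Dixon's criterion, and 12 stood out, 9 of them high. The criterion flags about 1 in 20 by chance for normally distributed values. CPM with zeros and ratios that depend on a pseudocount are not such values, so no excess is read from 12 of 88. For the 5p strand the high libraries were Al at 3 mo replicate 4 (1091 CPM, the others 0 to 5.86), DU at 3 mo replicate 2 (98.6 CPM, the others 0), Fe at 6 mo replicate 1 (313 CPM, the others 7.32 to 44.3), Fe at 12 mo replicate 2 (1125 CPM, the others 104 to 277), Ni at 1 mo replicate 4 (861 CPM, the others 161 to 276) and W at 1 mo replicate 4 (699.9 CPM, the others 203 to 281). For the 3p strand they were Co at 6 mo replicate 4 (3849 CPM, the others 712 to 1174), Ta at 3 mo replicate 4 (1486 CPM, the others 0 to 229) and Ta at 12 mo replicate 1 (6209 CPM, the others 1015 to 1511).

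The ratio of the strands was far below the group in Pb at 1 mo replicate 4 (-9.41, the others -1.11 to -0.21), Ta at 12 mo replicate 3 (-11.07, the others -4.53 to -3.26) and Co at 12 mo replicate 1 (-3.61, the others -2.36 to -2.18). In the first and second of these the 5p strand had no count. The high Ta libraries enter each metal's comparison at 3 and 12 mo.

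The difference of Pb from Ta at 6 mo departed from the mean of the other times for the 5p strand, by a fitted log2 value of -11.49 (edgeR adjusted p = 0.00268). The size depends on the prior because the Pb libraries hold no count.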

How the results depend on the processing

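Over 32 results, 273 of 378 alternative values kept direction and side of the threshold. The 5p difference in Pb at 6 mo was -11.67 as fitted and -10.89 when only the 2 groups were fitted, where the call was lost and the number of 5p calls was 0; leaving libraries out gave -12.21 to -10.44, with 0 or 1 calls. The Pb average of the 5p strand lost its call with RLE factors (-2.56), no filter (-2.57), a replicate block (-2.74) and without libraries under 20000 counts (-2.60), with 0 calls in each; it was 0.27 without the 6 mo libraries and -2.92 to -2.25 with libraries left out, where leaving out each replicate number gave 0 calls. Over all miRNAs, the calls in Pb at 6 mo were 8 as fitted and 41 by DESeq2. Those in the Pb average were 14 as fitted, 5 with RLE factors, 9 with no filter, 5 with the block, 1 without libraries under 20000 counts and 53 by DESeq2. Those for 6 mo against 3 mo were 60 as fitted, 39 with the block and 121 by DESeq2. The number of 3p calls at 1 time point was 2 by DESeq2 (Pb at 1 mo and W at 12 mo) and 1 without the filter (Pb at 1 mo).

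For 3 mo against 1 mo, the 3p difference lost its call by DESeq2 (-0.69), with RLE factors (-0.69), in Ta alone (-2.78) and without libraries under 20000 counts (-1.06), and ran from -1.43 to -0.90 with libraries left out. The 5p difference was 0.86 in Ta alone, was called with the replicate block (-1.76) and without Pb (-1.39), and ran from -2.16 to -0.80. For 6 mo against 3 mo the 5p difference was called by DESeq2 (-2.89), was 0.55 without Pb and ran from -1.30 to 0.28. For 12 mo against 6 mo it was called by DESeq2 (2.88) and was -0.93 in Ta alone and -0.084 without Pb. With replicate numbers left out, the strand balance ran from -1.63 to 0.35 for 3 mo against 1 mo and from -1.09 to 0.35 for 6 mo against 3 mo, the 5p difference of Fe at 12 mo from -0.35 to 3.21, and the 3 mo excess of 1-strand libraries from 14.5 to 43.2 percentage points. RLE factors moved the median of all miRNAs by 0.42 in Pb at 6 mo and by 0.23 in 3 mo against 1 mo. The causes of these changes were not tested, apart from those that remove Pb, 6 mo or single libraries by construction. The replicate block changed no other call. The 3 mo libraries had a median of 286094 counts.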
